A study of Rattus norvegicus with 6 samples.

Results

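Voltage-gated ion channel genes were taken from the mRNA tables of cultured neural progenitors by gene symbol: names starting with Kcn, with Scn followed by a number and the letter a or b, or with Cacn, leaving out the epithelial sodium channel (Scnn) genes. This gave 131 of the 17337 gene names in the tables, namely 91 potassium, 14 sodium and 26 calcium channel genes. The cells came from the cortex of embryonic day 14 (E14) Sprague Dawley rats. They were expanded in serum-free neural medium with the growth factors bFGF and EGF, were harvested after a second passage and received no treatment. PolyA-selected RNA of 2 biological replicates, A and B, was sequenced as 2 technical libraries each (A1, A2, B1 and B2). Every group in these data therefore carries the same cell label, although markers of other cell types differed between the replicates (below). The study also holds 2 Start-seq samples, which profile short capped nuclear RNA and were not analysed here. All levels below are FPKM, the fragments assigned to a gene scaled to the length of its transcript and the depth of the library, given as the mean of replicates A and B with the standard deviation (SD, n = 2). A gene with a mean of at least 1 FPKM is called expressed.

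Voltage-gated channels open an ion-selective pore when the membrane potential changes. Potassium channels repolarise the cell and hold its resting potential, sodium channels carry the upstroke of the action potential, and calcium channels turn depolarisation into a calcium signal. The pore is formed by a large subunit (alpha, or alpha1 in calcium channels), and auxiliary subunits tune its gating and its transport to the membrane. In the developing cortex, progenitors are coupled, strongly potassium-permeable cells that do not fire mature action potentials, and sodium channel genes are best known from neurons. The symbol rule is wider than its name. Only 49 of the 131 genes were grouped as pores that voltage opens. These include the atypical Scn7a and leave out Kcnma1, which was grouped with the pores opened by calcium or sodium. A further 35 encode potassium pores of other kinds (15 inward rectifiers, 13 two-pore domain leak channels and 7 opened by calcium or sodium), 10 encode electrically silent subunits that modify Kv channels, 36 encode auxiliary subunits, and Kcnrg encodes a soluble regulator.

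The labelled cell type was checked against marker genes. All 12 neural progenitor markers were expressed, led by Fabp7 (mean 11841 FPKM), Vim (3291 FPKM) and Sox2 (478 FPKM). Neuronal transcripts were present too, with 10 of 12 neuronal markers expressed, Tubb3 at 118 FPKM among them. All 6 astrocyte markers were expressed, and so were all 10 markers of mesenchymal and meningeal cells, while none of 6 microglial markers was. In a bulk culture, expression by few cells and weak expression by all of them cannot be told apart. Library B2 was sequenced least deeply: 1 FPKM corresponded to a mean base coverage of 6.83 in B2 and of 22.7 to 24.4 in the other libraries. Of the 131 genes, 112 were detected in B2 and 121 to 126 in the others.

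A wide gap within 1 channel complex lay between Kcnmb4, which encodes the beta4 subunit of the large-conductance (BK) potassium channel, and Kcnma1, which encodes its pore. Another lay between Kcnj9 and Kcnj6, which encode subunits of the G-protein-gated inward rectifier. The 150 bases before the annotated RefSeq start of each gene are shown because the members of each pair differ more than 100-fold in mRNA. They were read on the gene's own strand from build GRCr8, at chr7:54005102-54005251 (minus strand) for Kcnmb4, chr15:351775-351924 (plus strand) for Kcnma1, chr13:87320294-87320443 (minus strand) for Kcnj9 and chr11:47778349-47778498 (minus strand) for Kcnj6. Capitals mark the dinucleotide CG, which is the same on both strands.
Kcnmb4: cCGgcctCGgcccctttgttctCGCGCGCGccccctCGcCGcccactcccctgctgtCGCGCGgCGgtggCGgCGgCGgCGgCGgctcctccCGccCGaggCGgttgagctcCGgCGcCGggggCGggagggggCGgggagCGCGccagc
Kcnma1: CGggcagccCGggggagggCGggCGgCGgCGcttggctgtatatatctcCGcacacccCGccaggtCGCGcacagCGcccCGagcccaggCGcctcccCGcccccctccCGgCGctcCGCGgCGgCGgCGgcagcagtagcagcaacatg
Kcnj9: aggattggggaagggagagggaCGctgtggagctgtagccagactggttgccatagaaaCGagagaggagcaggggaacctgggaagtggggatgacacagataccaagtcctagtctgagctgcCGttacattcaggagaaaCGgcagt
Kcnj6: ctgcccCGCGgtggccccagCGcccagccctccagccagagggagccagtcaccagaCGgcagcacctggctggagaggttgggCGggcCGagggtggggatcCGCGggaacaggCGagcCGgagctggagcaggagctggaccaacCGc
The dinucleotide occurred 27 times in the window of Kcnmb4 and 21 times in that of Kcnma1, against a median of 4 (quartiles 1 and 10) over the 33469 RefSeq windows of this length, of which 86.1% held it at least once. It occurred 4 times in the window of Kcnj9 and 11 times in that of Kcnj6, so the expressed member of a pair had the higher count in the BK pair and the lower count in the other. RefSeq windows were matched for 89 of the 131 genes (67.9%), which is too few to compare the whole set.

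As a set, ion channel genes were weakly expressed in these progenitors. Of the 131 genes, 45 (34.4%) were expressed, where 60.5% of all gene names were. Only 12 (9.16%) reached 10 FPKM, where 38.3% of all gene names did. The median channel gene stood at 0.402 FPKM and the median gene name at 3.83 FPKM. Of the 131 genes 3 were listed at 0 in every library: Kcna10 and Kcnv2, subunits of the Kv family, and Kcnj1, best known as the potassium channel of the kidney tubule. The count of expressed genes was much the same in each library, with 45 and 42 in the libraries of A and 43 and 48 in those of B. Just above the line of 1 FPKM lay Kcnj11 (1.005), Cacng2 (1.01), Scn2b (1.03) and Cacna1d (1.13), and just below it lay, among others, Kcnk6 (0.950), Cacna2d2 (0.897) and Kcnb2 (0.862). The value of Kcnk6 is uncertain, since the tables give it 1 entry in A and 2 entries with equal values in B, which were summed (0.445 FPKM each in B1 and 0.894 FPKM each in B2).

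The potassium and sodium classes had no fixed order between them, and calcium channel genes were the most often expressed. Calcium channel genes passed the line in 14 of 26 cases (53.8%), potassium channel genes in 28 of 91 (30.8%) and sodium channel genes in 3 of 14 (21.4%). The sodium count rested on the replicate, with 2 genes at 1 FPKM or more in A alone (Scn8a and Scn3b) and 5 in B alone, Scn2b and Scn7a among them. At 10 FPKM or more there were 7 calcium, 5 potassium and 0 sodium channel genes. The median was 1.07 FPKM for calcium channel genes, 0.456 for sodium and 0.297 for potassium channel genes. Calcium channel genes, although fewer, summed to 233 ± 12.7 FPKM (52.6% ± 5.89 of the summed channel FPKM), against 196 ± 36.6 FPKM (44.1% ± 5.72) for potassium and 14.6 ± 1.61 FPKM (3.28%) for sodium channel genes. The sum over all 131 genes was 443 ± 25.5 FPKM. The potassium sum differed most between replicates, at 222 FPKM in A and 170 FPKM in B. The calcium sum was above it in B (241 FPKM) but about level with it in A (224 FPKM), and in library A2 the potassium sum was the higher (220.5 against 204.9 FPKM).

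**Figure D1:**
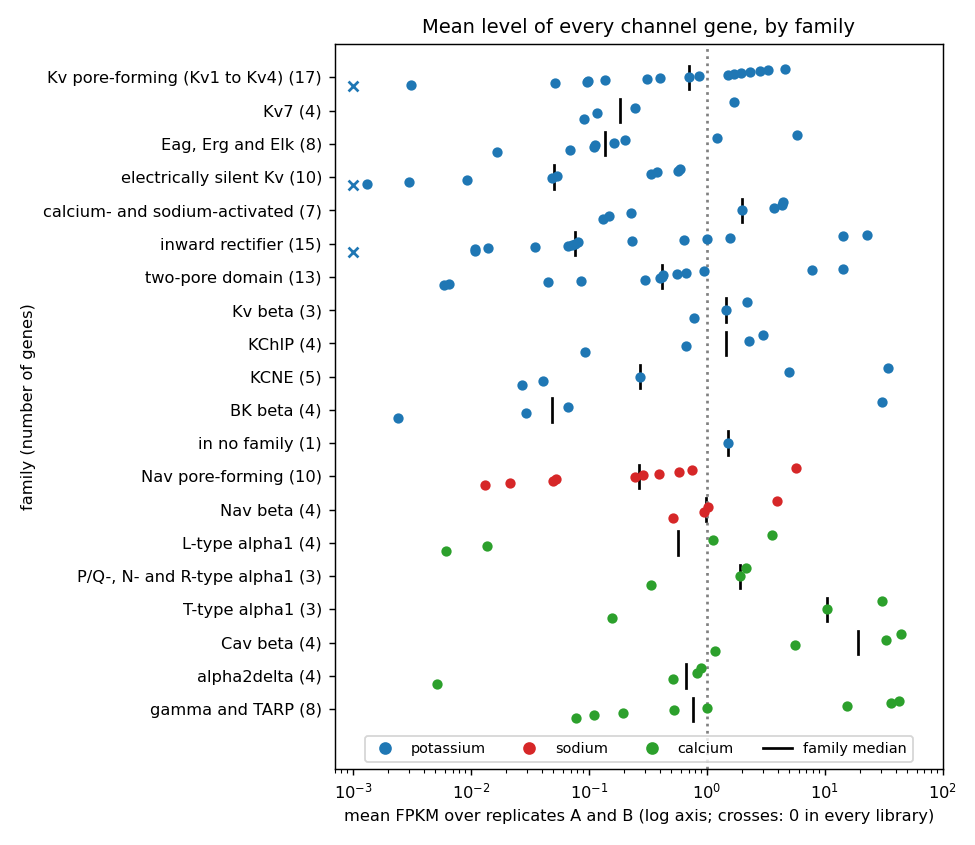
Mean FPKM over replicates A and B (log axis) of all 131 channel genes, one dot each, grouped by family and coloured by class (blue potassium, red sodium, green calcium), with the family median as a bar, 1 FPKM as a dotted line and crosses for the 3 genes at 0 in every library. All 4 Cav beta genes lie above 1 FPKM, while all 10 silent Kv genes and all 4 alpha2delta genes lie below it.

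Auxiliary genes supplied more FPKM than pore genes, by an amount that rested on the gamma genes. The 36 auxiliary genes summed to 269 ± 4.33 FPKM, or 60.9% ± 2.53 (SD, n = 2) of the channel total, and 17 of them (47.2%) were expressed. Without the 8 gamma genes, which include partners of glutamate receptors, the auxiliary sum was 173 ± 18.5 FPKM, level with the 170.3 ± 20.7 FPKM of all 84 pore-forming genes. The 49 voltage-gated pore genes summed to 88.9 ± 8.70 FPKM (20.1%), with 17 (34.7%) expressed. The 35 other potassium pores summed to 81.4 ± 29.4 FPKM, with 10 (28.6%) expressed, and this group alone carried most of the replicate difference in the potassium sum (102 FPKM in A and 60.7 FPKM in B). The 10 silent Kv subunits summed to 2.00 FPKM and none was expressed. Of the 12 genes at 10 FPKM or more, which held 74.0% of the total, 7 were auxiliary subunits, 2 were voltage-gated pores and 3 were other potassium pores.

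**Figure D2:**
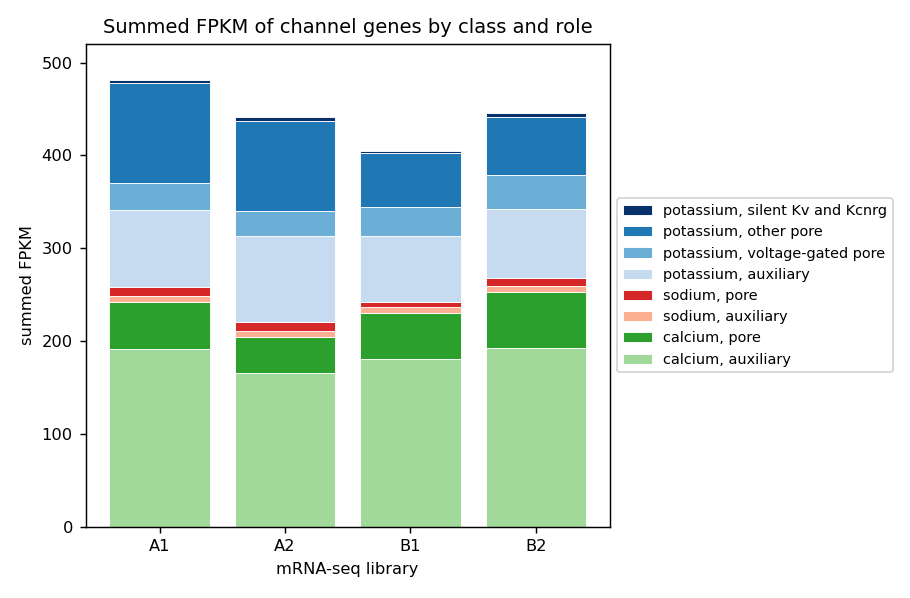
Stacked bars of the summed FPKM of the 131 channel genes in each of the 4 mRNA-seq libraries, split by class and by role of the subunit (the axis starts at 0). Calcium channel auxiliary genes form the largest block in every library, and the block of other potassium pores is taller in A1 and A2 than in B1 and B2.

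Among calcium channel genes the cytoplasmic beta subunits, which chaperone the pore to the membrane, were the one family with every member expressed. Cacnb3 had the highest mean of all channel genes at 44.1 ± 1.03 FPKM (rn6 chr7:140315369-140324902, plus strand). It stood at 48.4 and 38.4 FPKM in A1 and A2 and 38.5 and 51.2 FPKM in B1 and B2. Cacng4 was below it in A (33.2 against 43.4 FPKM) and above it in B (52.5 against 44.8 FPKM), and Kcnmb4 was above it in A2 (42.0 FPKM). Cacnb1 reached 33.0 ± 6.66 FPKM, with 45.6, 29.8, 36.2 and 20.4 FPKM in A1, A2, B1 and B2. The libraries of A and B overlapped for both Cacnb3 and Cacnb1. Cacnb2 was lower, at 6.82 and 7.08 FPKM in A and 4.24 and 4.35 FPKM in B, and Cacnb4 lowest, at 1.90 and 1.85 FPKM in A and 0.235 and 0.710 FPKM in B. Those last 2 genes did not overlap between replicates, and both were lower in B. Lack of overlap was common, and held for 60.1% of all expressed gene names in one direction or the other, so that it marks no gene out by itself.

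The gamma genes include the TARPs, better known as partners of AMPA-type glutamate receptors than of calcium channels. They summed to 96.4 ± 14.2 FPKM and the beta genes to 83.9 ± 8.49 FPKM, with the gamma genes ahead in B (106.5 against 77.9 FPKM) and the order in A differing between its libraries (beta ahead in A1, gamma ahead in A2). Cacng4 stood at 33.1 and 33.3 FPKM in A and 41.4 and 63.5 FPKM in B (mean 42.8 ± 13.6; rn6 chr10:95954160-96015484, minus strand). Cacng7 stood at 33.5 and 32.1 FPKM in A and 41.5 and 37.3 FPKM in B (36.1 ± 4.63). Cacng8 stood at 17.7 and 19.0 FPKM in A and 15.5 and 10.1 FPKM in B (15.6 ± 3.90). None of the 3 overlapped between replicates, the first 2 being higher in B and the third in A, where 60.1% of all expressed gene names did not overlap either. Cacng2, which encodes stargazin, was at 1.01 ± 0.106 FPKM, and the other 4 gamma genes lay between 0.0781 and 0.527 FPKM, with Cacng5 at the top. The alpha2delta genes, whose extracellular products raise the number of channels at the surface, were all below 1 FPKM, with means from 0.00520 FPKM (Cacna2d4) to 0.897 FPKM (Cacna2d2).

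The calcium pore itself was mostly of the T-type, the low-threshold channels that open near the resting potential. Cacna1g stood at 29.9 and 22.5 FPKM in A and 30.4 and 38.3 FPKM in B (30.3 ± 5.74), and Cacna1h at 11.98 and 7.95 FPKM in A and 11.5 and 10.3 FPKM in B (10.4 ± 0.658). The T-type share of the summed alpha1 FPKM was 80.8% in A and 82.5% in B. Cacna1i, the remaining T-type gene, was at 0.157 FPKM. Of the L-type genes, Cacna1c was at 3.11 and 3.04 FPKM in A and 2.92 and 5.24 FPKM in B (3.58 ± 0.712), Cacna1d was at 1.13 ± 0.0376 FPKM, and the muscle gene Cacna1s and the retinal gene Cacna1f were at 0.0136 and 0.00618 FPKM. The genes of presynaptic calcium channels were low but present, Cacna1a (P/Q-type) at 2.13 ± 0.0686 FPKM, Cacna1b (N-type) at 1.93 ± 0.163 FPKM and Cacna1e (R-type) at 0.337 ± 0.0982 FPKM. A known complex pairs 1 alpha1 with a beta and an alpha2delta subunit. Here the beta genes summed to 2.00 times the alpha1 genes in A and 1.42 times in B, and the alpha2delta genes to 5.15% and 3.96% of them. The T-type pores, which can work without these subunits, make up most of that alpha1 sum. Against the other 7 alpha1 genes the beta genes summed to 10.4 times in A and 8.11 times in B, and the alpha2delta genes to 26.8% and 22.7%.

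Sodium channel genes were led by Scn8a, which encodes the pore Nav1.6 of the axon initial segment and node. It stood at 7.18 and 7.56 FPKM in A and 2.91 and 5.33 FPKM in B (5.75 ± 2.30; rn6 chr7:142575629-142683667, plus strand), and was the only 1 of 10 sodium pore genes called expressed. It made up 77.1% of the summed sodium pore FPKM in A and 61.2% in B. Scn7a, an atypical channel of glia and other non-neuronal cells, followed at 0.335 and 0.385 FPKM in A and 1.11 and 1.18 FPKM in B. Of the other neuronal genes of the brain, Scn2a was at 0.583 ± 0.0659 FPKM, above Scn7a in A and below it in B, with Scn3a at 0.289 ± 0.104 FPKM and Scn1a at 0.247 ± 0.0903 FPKM. The genes of sensory neurons, Scn9a, Scn10a and Scn11a, and the skeletal muscle gene Scn4a had means of 0.0131 to 0.0528 FPKM. Of the sodium channel beta subunits, which are also cell adhesion molecules, Scn3b was highest at 5.12 and 4.90 FPKM in A and 2.85 and 2.84 FPKM in B, Scn2b followed at 0.509 and 0.320 FPKM in A and 1.14 and 2.16 FPKM in B, and Scn4b stood at 0.109 and 0.0891 FPKM in A and 0.905 and 0.958 FPKM in B. The calcium pore genes together summed to 4.70 times the sodium pore genes in A and 8.16 times in B.

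Potassium channel mRNA was dominated by a few genes of unlike kinds. The auxiliary gene Kcne5, a single-span KCNE subunit that inhibits Kv7.1 channels, had 31.6 and 32.4 FPKM in A and 39.3 and 33.3 FPKM in B (34.1 ± 3.04). Its annotated locus is only 0.616 kb long (rn6 chrX:113583844-113584459, minus strand), against a median of 38.0 kb for all channel genes and 15.1 kb for all gene names, so its level rests on a short stretch of sequence. Kcnmb4 had 34.6 and 42.0 FPKM in A and 17.4 and 27.9 FPKM in B (30.5 ± 11.03; rn6 chr7:59461808-59514759, minus strand). Kcnj9, encoding the inward rectifier subunit GIRK3, had 36.5 and 29.1 FPKM in A and 13.5 and 11.3 FPKM in B (22.6 ± 14.4; rn6 chr13:90703053-90710148, minus strand). Kcne5 was slightly higher in B and the other 2 were higher in A, with no overlap of libraries for any of the 3. The same lack of overlap held for 60.1% of all expressed gene names. Kcnj14, the inward rectifier Kir2.4, was at 14.2 ± 5.08 FPKM (18.4 and 17.2 in A, 11.3 and 9.92 in B) and Kcnk10, the leak channel TREK-2, at 14.3 ± 7.67 FPKM (19.5 and 19.9 in A, 8.70 and 8.97 in B). Kcnk2, the related TREK-1, followed at 7.82 ± 3.66 FPKM, a mean to which B2 contributed most (5.07, 5.40, 5.59 and 15.2 FPKM in A1, A2, B1 and B2).

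**Figure D3:**
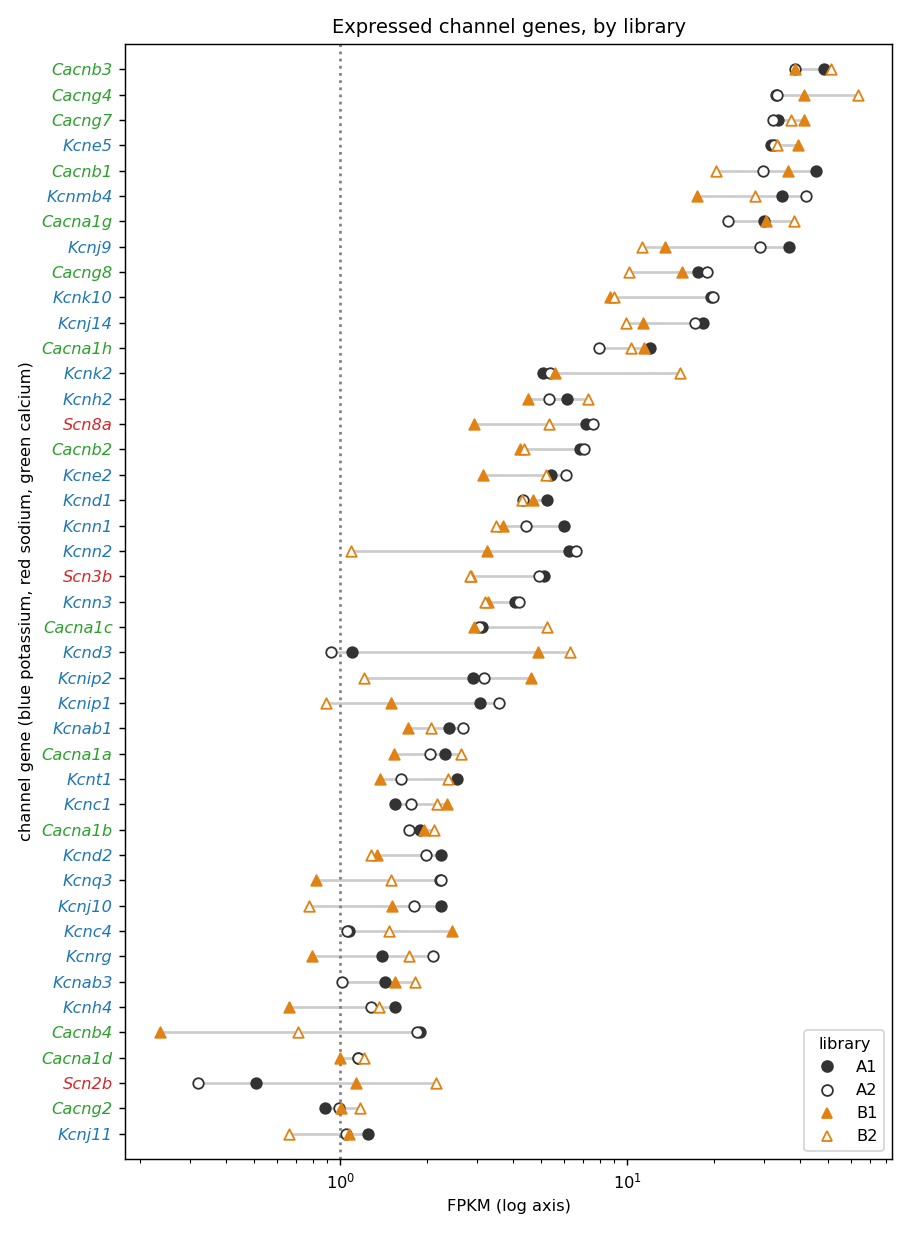
FPKM (log axis) in each library of 43 of the 45 expressed channel genes (1 FPKM is the dotted line), ordered by mean, with gene names coloured by class and a grey line spanning the 4 libraries. Circles are the libraries of replicate A and triangles those of replicate B. Of the 12 highest genes 3 (Cacnb3, Cacnb1 and Cacna1h) overlap between replicates, and Kcnd3 and Kcnj9 are among the genes that do not, where 60.1% of all expressed gene names do not.

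No voltage-gated potassium pore reached 10 FPKM, although 10 of 29 were expressed. The highest was Kcnh2, the pore of the Erg channel known from cardiac repolarisation, at 6.14 and 5.35 FPKM in A and 4.49 and 7.27 FPKM in B (5.81 ± 0.0973). In the Kv1 to Kv4 families 7 of 17 genes were expressed, among them Kcnc1 and Kcnc4 of Kv3 and Kcnd1, Kcnd2 and Kcnd3 of Kv4. The A-type channel gene Kcnd1 had the highest mean of these families, at 4.64 ± 0.206 FPKM. Kcnd3 was below Kcnd1 in A (1.01 against 4.79 FPKM) and above it in B (5.61 against 4.50 FPKM). The Kv1 genes, whose products sit along mature axons, had means from 0 (Kcna10) to 0.702 FPKM (Kcna6). In Kv7, whose channels carry the M-current of neurons, Kcnq3 was at 1.70 ± 0.761 FPKM and the other 3 at 0.0916 to 0.247 FPKM. The small-conductance calcium-activated genes Kcnn1, Kcnn2 and Kcnn3 had means of 4.40 ± 1.14, 4.30 ± 3.02 and 3.68 ± 0.643 FPKM, with Kcnn2 above Kcnn3 in A and below it in B. Kcnt1, a sodium-activated channel, was at 1.98 ± 0.151 FPKM. Of the cytoplasmic partners of Kv channels, Kcnab1 (Kv beta1) was at 2.21 ± 0.448 FPKM and Kcnip2 (KChIP2, a partner of Kv4) at 2.97 ± 0.0861 FPKM. The value of Kcnip2 is uncertain, since the tables list it at 2 places on chromosome 1 that were summed, with much the same value at both in A1, A2 and B1 (2.29 and 2.31 FPKM in B1) but with 0 and 1.21 FPKM in B2. Among the silent Kv genes the highest was Kcng1, at 0.594 ± 0.294 FPKM.

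In 3 cases, chosen after their values were seen, a subunit gene stood far above the genes of its known partners. Kcnmb4 exceeded Kcnma1 by 275-fold in A and 181-fold in B, Kcnma1 being at 0.167, 0.112, 0.116 and 0.134 FPKM in A1, A2, B1 and B2. Kcnj9 stood at 32.8 FPKM in A and 12.4 FPKM in B, while Kcnj3, Kcnj5 and Kcnj6, the subunits with which GIRK3 assembles, together summed to 0.0564 FPKM in A and 0.0150 FPKM in B and were listed at 0 in B2. Kcne5 had a mean of 34.1 FPKM where Kcnq1 had 0.0916 ± 0.0798 FPKM. Others were close, the 4 sodium channel beta genes summing to 0.642 times the 10 pore genes in A and 0.994 times in B. For Kv4 the 4 KChIP genes summed to 0.863 times the 3 Kv4 genes in A and 0.450 times in B, with the uncertain value of Kcnip2 among them. In the 3 wide cases the lower genes were below 1 FPKM in every library.

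**Figure D4:**
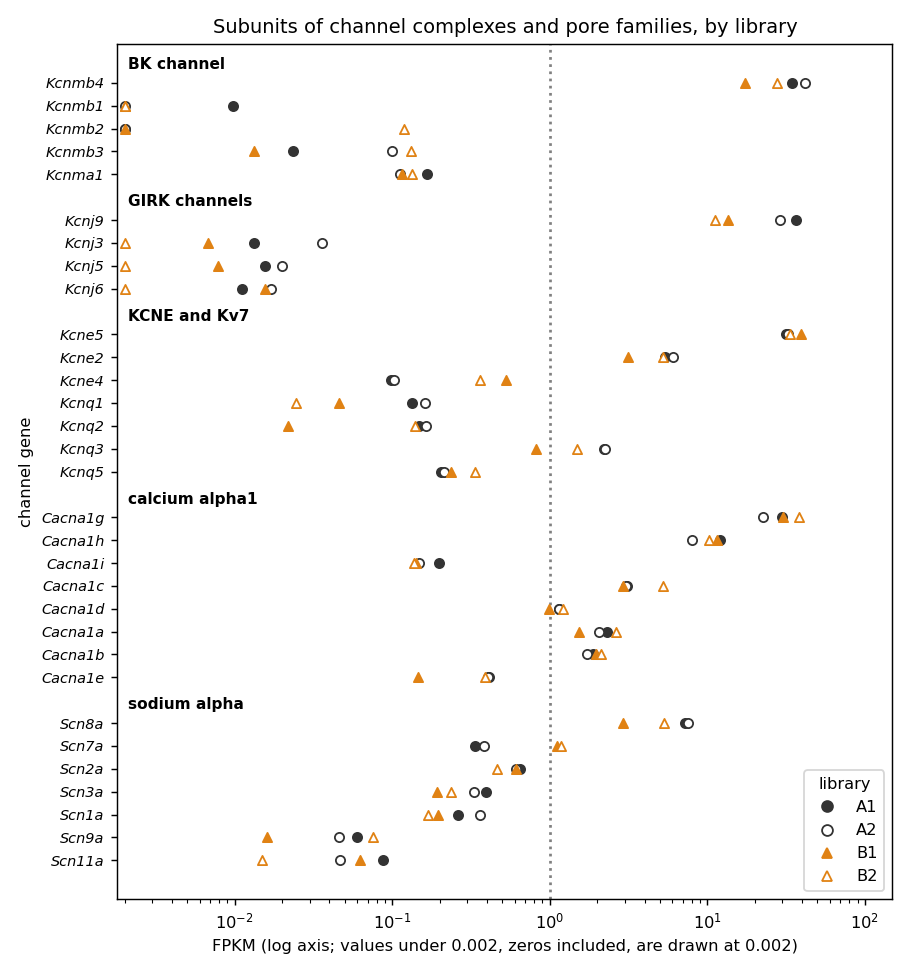
FPKM (log axis) of selected channel genes in the 4 libraries (circles replicate A, triangles replicate B), grouped by complex or pore family, with 1 FPKM as a dotted line. Kcnmb4, Kcnj9 and Kcne5 lie far to the right of the pore or partner genes listed under them, Cacna1g and Cacna1h lead the calcium pores, and Scn8a leads the sodium pores.

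Channel genes that lie close together in the genome often stood at unlike levels. Other pairs of genes were not compared, so whether this is more common than elsewhere was not tested. Of 21 pairs of neighbours no more than 150 kb apart, 19 had a ratio to take, and it was over 10-fold in 10 pairs and under 3-fold in 7. In the other 2 pairs 1 gene was listed at 0. Several of the wide ratios rest on a gene near 0, such as Cacna2d4 (0.00520 FPKM) and Kcnmb1 (0.00243 FPKM), which lies inside the locus of Kcnip1. Cacng1, Cacng4 and Cacng5 follow each other on chromosome 10 on the minus strand. Cacng4 was 390-fold above Cacng1, which begins the row 20.0 kb away, and 81.3-fold above Cacng5. On chromosome 1 the row Cacng6, Cacng8 and Cacng7 read 0.194, 15.6 and 36.1 FPKM. Kcnj9 and Kcnj10 lie 12.9 kb apart on opposite strands of chromosome 13, and Kcnj9 was 14.3-fold higher than Kcnj10, the glial Kir4.1 (1.58 ± 0.619 FPKM). On chromosome 11 Kcne2 (4.96 ± 1.12 FPKM) and Kcne1 (0.0408 FPKM) lie 51.0 kb apart. The sodium channel genes of chromosome 3 (Scn3a, Scn2a, Scn1a, Scn9a and Scn7a) were all under 1 FPKM on average, and so were Scn10a and Scn11a on chromosome 8. Among expressed genes 4 overlap another annotated gene, Cacna1h with Tpsg1, Cacng8 with Mir935, Kcnip1 with Kcnmb1 and Kcnip2 with Hpse2, and in each case the other gene had a mean of 0.00243 to 0.130 FPKM.

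Replicates A and B were then compared, which asks how far the channel profile repeats between cultures under the same label. With 2 biological replicates of a single condition no test between groups was possible, and the comparison is given as counts. A gene was called when its log2(FPKM + 1) differed by at least 1 between replicates and the libraries did not overlap. Of the 45 expressed channel genes 4 were called (8.89%), where 6.15% of all expressed gene names were. With both directions pooled, this share lies near the background. By direction, 1 was higher in B (background 4.58%). Higher in A were 3, a share above its background of 1.57% that rests on few genes. At several other settings, given at the end, the share called was further above the background. Kcnd3, the Kv4.3 gene, was higher in B by 1.71 on the log2 scale, with 1.10 and 0.929 FPKM in A and 4.89 and 6.33 FPKM in B. Higher in A were Kcnj9 (log2 difference, B minus A, -1.33), Kcnn2 (-1.32, with 6.26 and 6.61 FPKM in A and 3.25 and 1.09 FPKM in B) and Kcnk10 (-1.07). Just short of the line were Kcnip1 (-0.99) and Cacnb4 (-0.98). Without library B2, Kcnn2 was no longer called (-0.81) and Cacnb4 (-1.22), Kcnmb4 (-1.08) and Scn8a (-1.10) were, which gave 6 calls. Without B1 there were 7 calls, with Kcnk2, Scn2b and Kcnip1 added.

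Of any size, both libraries of B lay above both of A for 13 of the 45 genes (28.9%, where 28.1% of all expressed gene names did) and below for 19 (42.2%, background 32.0%). The median log2 difference was -0.21 over the channel genes and -0.03 over all expressed names. By role, 7 of the 10 expressed potassium pores of the non-voltage-gated kinds were lower in B, and 6 of 17 voltage-gated pores were higher in B and 4 lower. Technical libraries of A repeated closely, and 0 of the 45 genes differed 2-fold between A1 and A2 (background 0.286%). Between B1 and B2, 6 of the 45 did (background 5.41%): Cacnb4, Kcnh4, Kcnip2, Kcnk2, Kcnn2 and Kcnrg, of which Kcnip2 differs by its 0 at 1 of 2 places in B2.

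**Figure D5:**
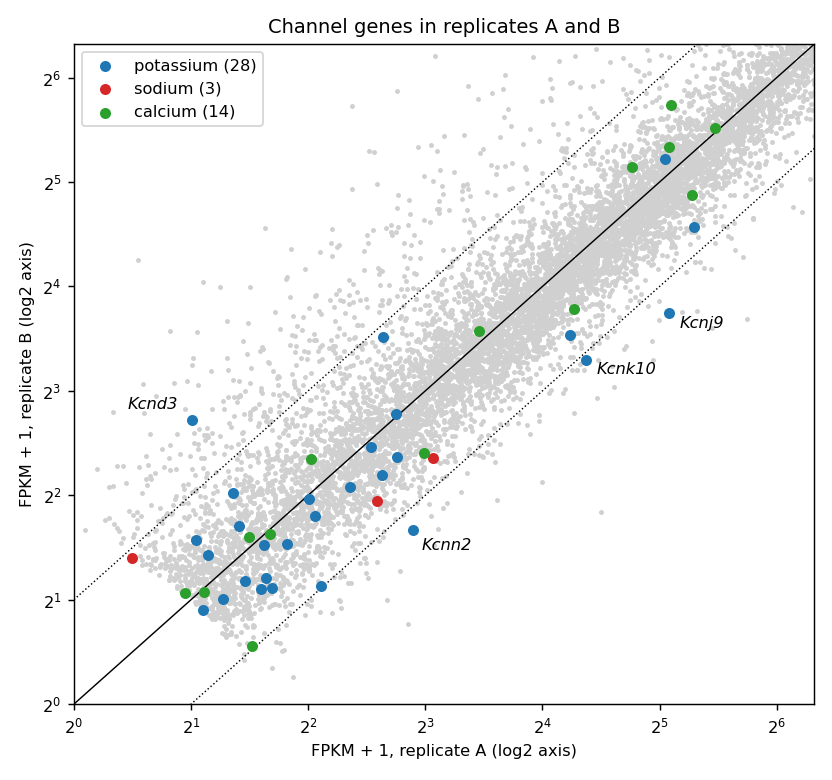
FPKM + 1 in replicate B against replicate A (log2 axes) for the 45 expressed channel genes, coloured by class, over all expressed gene names within the plotted range in grey. The solid line marks equal levels and the dotted lines a 2-fold difference; the 4 called genes are named, 1 above the upper line and 3 at or below the lower one.

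Markers of other cell types differed between the replicates too. Over all expressed gene names, 4.58% were called higher in B and 1.57% higher in A. All 10 mesenchymal and meningeal markers were called higher in B, with a summed level of 678 to 697 FPKM in the libraries of A and 2664 to 3251 FPKM in those of B (Col1a1 at 163 FPKM in A and 735 FPKM in B). The summed level of the 12 neural progenitor markers was 21284 to 23365 FPKM in A and 10255 to 11070 FPKM in B, of which Fabp7 and Hes5 were called higher in A. Both libraries of B lay below both of A for 7 of the 12 and above for 0, where they did so for 32.0% and 28.1% of all expressed gene names. The sum follows its most abundant genes, and it was 4646 FPKM in A and 4660 FPKM in B without Fabp7, but without Fabp7 and Vim 1619 FPKM in A and 1105 FPKM in B. The 12 neuronal markers summed to 242 to 271 FPKM in A and 218 to 269 FPKM in B, and none was called. Both libraries of B lay below both of A for 6 of them and above for 1. Of 8 oligodendrocyte precursor markers, summing to 261 to 286 FPKM in A and 354 to 695 FPKM in B, Pdgfra was called higher in B (9.29 and 59.4 FPKM), while Neu4 was at 0 in every library. Of 6 astrocyte markers, summing to 995 to 997 FPKM in A and 786 to 1189 FPKM in B, S100b was called higher in A and Gjb6 higher in B. Endothelial and mural markers, with 3 of 10 expressed, summed to 37.2 to 37.5 FPKM in A and 79.7 to 107.7 FPKM in B. Most of that was Acta2, called higher in B (15.8 and 54.3 FPKM), and Pdgfrb (19.6 and 34.9 FPKM), and the other 8 genes summed to 1.93 FPKM in A and 4.49 FPKM in B. The 7 muscle markers measured, 2 of them expressed, summed to 3.40 to 4.69 FPKM in A and 4.91 to 12.3 FPKM in B. Tnnt2 was called higher in B (0.507 and 7.36 FPKM) and Myh6 higher in A (2.34 and 0.647 FPKM), and without Tnnt2 the sum was 3.54 FPKM in A and 1.22 FPKM in B. The 6 microglial markers summed to under 2 FPKM in every library. The part of these differences in the channel results was not tested.

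Other genes that work with these channels were taken as 9 lists of 41 genes, of which 36 were measured and 26 were expressed. Between replicates 1 was called, where 6.15% of all expressed gene names were. The called gene was Hcn2, a hyperpolarisation-activated pacemaker channel, at 3.84 and 3.19 FPKM in A and 8.49 and 10.8 FPKM in B, and with Hcn3 it was 1 of 2 HCN genes expressed. Store-operated calcium entry, which refills the endoplasmic reticulum without a change of voltage, had all 5 genes expressed and summed to 88.3 ± 2.95 FPKM, led by the pore gene Orai1 (36.7 ± 3.53 FPKM) and the sensor gene Stim2 (19.7 ± 4.59 FPKM). Pore against pore, the 3 Orai genes summed to 55.9 ± 6.31 FPKM and the voltage-gated calcium pore genes to 50.0 ± 7.05 FPKM. The Orai sum was the higher in both replicates (51.4 against 45.0 FPKM in A and 60.3 against 55.0 FPKM in B). In library A1, however, the Orai sum was the lower (48.5 against 51.03 FPKM). The 6 sodium pump genes of the list, which maintain the ion gradients, were all expressed and summed to 862 ± 99.3 FPKM, with Atp1b2 at 438 ± 109 FPKM. Outside the list, Atp1a4 (0.216 FPKM) and Atp1b4 (0.00554 FPKM) were below 1 FPKM. Of 6 calcium pump genes 3 were expressed, with the reticulum pump Atp2a2 at 63.7 ± 11.7 FPKM, and of 4 measured release channel genes of the reticulum 2 were, Itpr2 (2.88 FPKM) and Itpr1 (2.46 FPKM). Among cytoplasmic partners of sodium channels 3 of 4 FHF genes were expressed, led by Fgf12 at 13.4 ± 1.14 FPKM, above the 8.15 ± 2.00 FPKM of the 10 sodium pore genes together. Of 3 measured anchors of the axon initial segment 2 were expressed, Nfasc (6.34 FPKM) and Ank3 (2.74 FPKM). The sodium leak channel gene Nalcn was at 1.32 ± 0.246 FPKM and its partner Unc79 at 4.95 FPKM, and the Kv4 partner Dpp6 was at 4.20 ± 0.759 FPKM where Dpp10 was at 0.0332 FPKM.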

How the data were processed

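PolyA-selected libraries A1, A2, B1 and B2 (2 biological replicates, 2 technical libraries each) of untreated E14 rat cortical progenitors were used. The authors aligned reads to rn6 with STAR. The submitters' processing notes also name cutadapt, HISAT and StringTie, versions not given in the sources used here. The FPKM values were made by the authors and used as deposited, and their table layout is that of StringTie while the methods name Rsubread and DESeq2 as their source. The TPM values, also deposited, add up to 1000000 per library. Coverage as deposited (mean base depth of a gene, unscaled) gave the depth per FPKM. No read counts were used, so no counting interval is given.

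FPKM was summed over rows of a gene name and averaged over technical libraries, then over A and B. Log2(FPKM + 1) was averaged over technical libraries to compare A with B (log2 difference of at least 1, mean of at least 1 FPKM, no overlap). Scripts used Python 3.11.15, pandas 2.3.3, numpy 2.4.6 and matplotlib 3.10.9, and the comparison was tested on simulated data. No p-value was computed, since both replicates share 1 condition. Alternatives were other FPKM thresholds, pseudocounts, TPM, rescaling and left-out libraries.

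The members and lists were chosen with earlier results of these data known. Members named were the 12 highest, the 3 highest of each class, the highest of each family, those called between replicates and the sodium pore and calcium alpha1 genes, except a few genes that are not reported here by name. Other members were named after their values were seen, as partners, neighbours or family members of these. Ank2, Fam155a, Ryr1, Ryr3, Ttn and Unc80 of the lists were not analysed here. RefSeq promoter windows are from build GRCr8.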

Additional observations from a re-analysis of the deposited data

Results flagged for a closer look

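Each of 133 values (the 128 channel genes above 0 in any library, the 3 class sums, the count of expressed genes and the depth) was checked over the 4 libraries for 1 library far from the other 3. In all 17 were flagged, 11 of them in B2, 4 in B1, 2 in A1 and 0 in A2. Chance flags about 1 in 20 such values, and the technical libraries of a replicate are not independent. Kcng3, Kcnk9, Kcnmb1 and Kcnmb2 were above 0 in 1 library only. They are flagged at any such value, so the chance rate does not apply to them. Among expressed genes, Kcnk2 had 15.2 FPKM in B2 where the other libraries had 5.07 to 5.59 FPKM, and Cacna1c had 5.24 FPKM in B2 where they had 2.92 to 3.11 FPKM. The depth as coverage per FPKM was 6.83 in B2 and 22.7 to 24.4 in the others.

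The other flagged genes had means under 1 FPKM. Higher in B2 than in the other libraries were Kcnk3 at 1.40 FPKM (others 0.378 to 0.5003), Kcnt2 at 0.385 FPKM (0.163 to 0.199), Kcnn4 at 0.254 FPKM (0.109 to 0.119), Kcnj4 at 0.149 FPKM (0.0414 to 0.0591), Kcnmb2 at 0.118 FPKM (0 in the others) and Cacna1f at 0.0154 FPKM (0.00213 to 0.00363). Lower in B2 were Kcnv1 at 0.133 FPKM (others 0.661 to 0.756) and Cacng3 at 0 FPKM (0.1003 to 0.107). Lower in B1 were Cacna2d1 at 0.455 FPKM (others 0.922 to 0.980), Cacna1e at 0.145 FPKM (0.390 to 0.409) and Kcnk1 at 0.0677 FPKM (0.494 to 0.541). Kcng3 was listed above 0 in B1 only (0.00522 FPKM), and Kcnk9 and Kcnmb1 in A1 only (0.0236 and 0.00973 FPKM).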

How the results depend on the processing

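Of 66 alternative values of 9 results, 40 stayed within their limits, 26 moved and 0 reversed. The 9 results are counts, medians and a sum without a direction, so none of them could reverse. With the line of expression at 10 FPKM the expressed genes numbered 12 in all, 5 potassium, 0 sodium and 7 calcium. Sodium channel genes numbered 7 at 0.5 FPKM, 5 with TPM, and 2 to 5 with either replicate left out. The potassium, sodium and calcium medians were 2.90, 3.93 and 8.03 FPKM over expressed genes only, 0.4999, 0.759 and 1.79 in TPM, and 0.281 to 0.287, 0.357 to 0.489 and 1.02 to 1.04 FPKM with either replicate left out. With replicate B from B1 alone the potassium and calcium medians were 0.287 and 1.01 FPKM. The summed level was 745 in TPM. At each of the next settings the share called was higher among channel genes than among all gene names tested (background). Calls between replicates numbered 2 at 10 FPKM (background 4.96%), 7 with a pseudocount of 0.1 (8.53%), 16 at a log2 difference of 0.58 (16.5%) and 7 with TPM (6.91%). With 1 library left out, an alternative partly chosen after seeing the data, they numbered 4 to 7, and Kcnj9, Kcnk10 and Kcnd3 were called each time. The log2 of the replicate mean, also added after seeing the data, gave 4. No paired analysis was possible because no test was run and the replicate letters are shared with Start-seq samples not analysed here. Depth is known only as relative coverage, and zeros in the shallow library B2 do not show absence.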
